A study of Homo sapiens with 6 samples.

Results

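G protein-coupled receptors with known roles in prostate cells were examined: the alpha-adrenergic receptor genes ADRA1A, ADRA2A and ADRA2C, the beta-adrenergic receptor gene ADRB1, the kappa opioid receptor gene OPRK1, and the olfactory receptor genes OR51E1 and OR51E2. These 7 genes were found by symbol among the 35554 genes of the count table, and 5 of them held enough counts to be fitted. They were selected with their measured values in these same libraries known, so their differences between the lines are given as a description, with no test. RNA was sequenced from LNCaP, an established androgen-responsive human cell line that originated from metastatic prostate cancer, and from LNCaP-enzaR, a line derived from it that is resistant to enzalutamide, an inhibitor of the androgen receptor. The study's methods describe long-term drug exposure as the means of selection, followed by culture at a reduced dose. The labels do not say whether enzalutamide was present at harvest. Each line was grown in 3 flasks and harvested before the cells were confluent. LNCaP-enzaR is thus 1 selection, and p-values for other genes measure the spread between flasks, not between independent selections.

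Adrenergic receptors bind adrenaline and noradrenaline and hand the signal to a G protein that depends on the receptor class. Alpha-1 receptors couple to Gq and release calcium, alpha-2 receptors couple to Gi and lower cAMP, and beta receptors couple to Gs and raise cAMP. The kappa opioid receptor couples to Gi and Go and binds dynorphin peptides. OR51E1 and OR51E2 belong to the odorant receptor family and are best known outside the nose for their expression in prostate epithelium, where OR51E2 is also called prostate-specific G protein-coupled receptor. In the prostate, alpha-1A receptors drive contraction of smooth muscle and beta receptors act on epithelial cells.

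The libraries held 77759122 to 98616465 counts, so that 1 count was worth 0.0101 to 0.0127 CPM, which is counts per 1000000 of the scaled library. Luminal markers were high in both lines, with 9 of 9 past the low-count filter and a summed level of 4851 to 4975 CPM in parental and 4402 to 4553 CPM in LNCaP-enzaR libraries. Summed fibroblast and smooth muscle markers were 17.0 to 20.2 and 17.2 to 18.0 CPM, neuron and glia markers 16.2 to 17.1 and 3.28 to 3.50 CPM, and leukocyte markers 0.255 to 0.821 and 0.192 to 0.255 CPM. The lower sum for neurons and glia came almost wholly from NEFL (16.1 ± 0.448 and 2.22 ± 0.271 CPM), while RBFOX3 (0.0822 and 0.303 CPM) and TUBB3 (0.240 and 0.690 CPM) were higher in LNCaP-enzaR. Of the 8 neuron and glia genes in the table, 2 (SNAP25 and ELAVL4) were at 0 in every parental library. Mitochondrial genes took 6.72% to 7.06% of the counts in parental and 14.7% to 15.5% in LNCaP-enzaR libraries, and with these genes left out the receptors at least 1.5-fold higher and lower were still 3 and 2. The part of the neuron and glia markers in the results was not tested. Over all genes, LNCaP-enzaR library 1 stood apart from the other two, with a chi-square of their counts per degree of freedom of 35.6 and 28.2, against 6.97 between the others and 5.56 to 9.06 among parental libraries. Without that library, 3 receptors were still at least 1.5-fold higher and 2 lower, with log2 fold changes of 2.16 for ADRA1A, -5.12 for ADRA2A, 2.42 for ADRA2C, -1.46 for ADRB1 and 4.60 for OPRK1. In bulk RNA, fewer cells that express a gene and less RNA per cell cannot be told apart.

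Of the 5 fitted receptor genes, 3 were at least 1.5-fold higher and 2 at least 1.5-fold lower in LNCaP-enzaR. Over all 19711 fitted genes, 42.7% passed the same limits together with an adjusted p of at most 0.05, 23.3% being higher and 19.5% lower. The libraries of the lines did not overlap for 70.6% of the fitted genes, which is the background for each receptor described as not overlapping. Nothing is read from these comparisons, since the receptors were chosen on these values. The median log2 fold change over all fitted genes was 0.01.

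**Figure D1:**
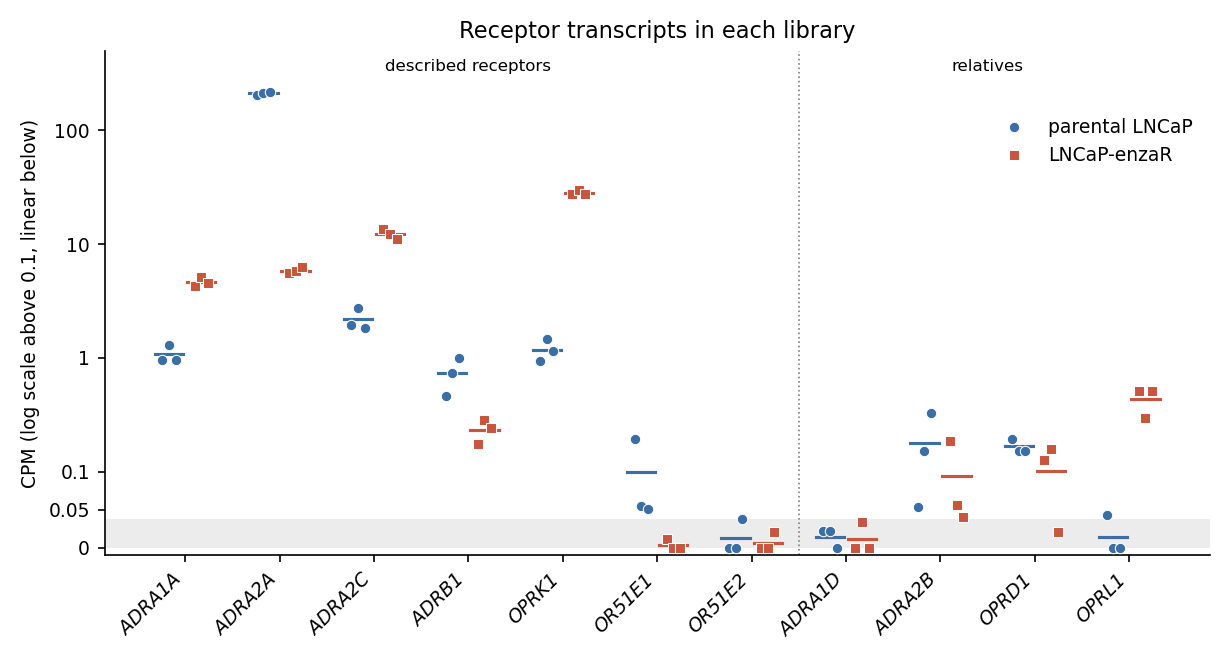
Level of each receptor gene in each library in CPM, on an axis that is logarithmic above 0.1 and linear below it. Circles are parental and squares LNCaP-enzaR libraries, bars are means of 3, and the grey band marks levels of up to 3 counts. ADRA2A stood at 203.4 to 215.2 CPM in parental and 5.54 to 6.24 CPM in LNCaP-enzaR libraries, OPRK1 went the other way, and OR51E2 lay in the grey band in both lines.

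ADRA2A, the alpha-2A receptor that lowers cAMP through Gi, had the highest level per kilobase of the 7 genes in parental cells and the largest fitted difference. It is a gene of 1 exon (ENSG00000150594.7, GRCh38 chr10:111077029-111080907, plus strand). Its counts were 18829, 19394 and 16905 in parental libraries and 478, 510 and 619 in LNCaP-enzaR libraries. Scaled to library size, these were 203.4, 213.2 and 215.2 CPM against 5.54, 5.77 and 6.24 CPM. The groups lay far apart. Mean levels were 210.6 ± 6.30 CPM and 5.85 ± 0.356 CPM (SD, n = 3), which is 36.0-fold lower in LNCaP-enzaR (log2 fold change -5.17, SE 0.07). ADRA2A remained readily counted in the resistant line.

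ADRA2C, the alpha-2C receptor with the same coupling, showed the opposite direction. It too has 1 exon (ENSG00000184160.8, chr4:3766348-3768526, plus strand). Parental libraries held 182, 251 and 143 counts, or 1.97, 2.76 and 1.82 CPM. LNCaP-enzaR libraries held 1161, 1082 and 1094 counts, or 13.5, 12.3 and 11.03 CPM. Every resistant library stood above every parental one. The mean went from 2.18 ± 0.505 to 12.2 ± 1.21 CPM (SD, n = 3), 5.59-fold higher (log2 fold change 2.48, SE 0.14).

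Within the alpha-2 pair the order was therefore inverted. Per kilobase of exon, the scale on which genes can be compared, ADRA2A was at 54.3 ± 1.62 and ADRA2C at 1.00 ± 0.232 CPM per kb in parental cells. In LNCaP-enzaR, ADRA2A was at 1.51 ± 0.0917 and ADRA2C at 5.62 ± 0.557 CPM per kb. The order of the pair was the same in all 3 libraries of each line.

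ADRA1A, the alpha-1A receptor that signals through Gq, was low in parental cells and higher in the resistant line. The gene (ENSG00000120907.18, chr8:26748150-26867278, minus strand) was counted 89, 119 and 76 times in parental and 367, 450 and 452 times in LNCaP-enzaR libraries. That corresponds to 0.962, 1.31 and 0.967 CPM against 4.25, 5.10 and 4.56 CPM, with no overlap. Means were 1.08 ± 0.198 and 4.63 ± 0.427 CPM (SD, n = 3), a 4.28-fold higher level (log2 fold change 2.10, SE 0.16). Of the 6 tested fibroblast and smooth muscle markers, 3 rose: ACTA2 (2.00 ± 0.397 to 8.71 ± 0.255 CPM), LUM (0.425 ± 0.151 to 1.44 ± 0.243 CPM) and PDGFRB (0.641 ± 0.0382 to 1.73 ± 0.295 CPM). COL1A1, which carried most of the summed level of that list in parental cells, fell from 13.4 to 4.29 CPM. The other 2, COL3A1 and the smooth muscle gene MYH11, did not pass (log2 fold changes -0.38 and -0.50). Of the exonic bases of ACTA2, 36.2% also lie in exons of other genes. The part of these markers in the level of ADRA1A was not tested.

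ADRB1, the beta-1 receptor that raises cAMP through Gs, had the fewest counts of the fitted receptors. It has 1 exon (ENSG00000043591.6, chr10:114043866-114046904, plus strand) and lies 2963.0 kb from ADRA2A. Counts were 43, 67 and 78 in parental and 15, 25 and 24 in LNCaP-enzaR libraries. The corresponding levels were 0.465, 0.737 and 0.993 CPM against 0.174, 0.283 and 0.242 CPM. The groups did not overlap, but the parental libraries ranged widely. Means were 0.731 ± 0.264 and 0.233 ± 0.0552 CPM (SD, n = 3), 3.11-fold lower (log2 fold change -1.64, SE 0.37).

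OPRK1, the kappa opioid receptor, was the receptor with the largest difference towards a higher level in LNCaP-enzaR. The gene (ENSG00000082556.14, chr8:53225724-53251637, minus strand) was counted 87, 134 and 90 times in parental libraries and 2362, 2636 and 2737 times in LNCaP-enzaR libraries. These were 0.940, 1.47 and 1.15 CPM against 27.4, 29.8 and 27.6 CPM, with every resistant library far above every parental one. Mean levels were 1.19 ± 0.269 and 28.3 ± 1.37 CPM (SD, n = 3), 23.8-fold higher (log2 fold change 4.57, SE 0.13).

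OR51E1, a receptor for medium-chain fatty acids, was barely transcribed. Parental libraries held 18, 5 and 4 counts and LNCaP-enzaR libraries 1, 0 and 0 counts (ENSG00000180785.10, chr11:4643420-4655488, plus strand). Most parental counts came from 1 library. The sums of 27 and 1 counts gave a ratio of 28.2 for parental over LNCaP-enzaR after scaling, with an exact 95% interval of 4.65 to 1155 that covers counting error only. The gene did not pass the low-count filter.

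OR51E2, which lies 24.7 kb from OR51E1 on the other strand (ENSG00000167332.9, chr11:4680171-4697854), was at or under the limit of counting in both lines. It had 0, 0 and 3 counts in parental and 0, 0 and 2 counts in LNCaP-enzaR libraries. A count of 0 allows up to 3 counts, or 0.0302 to 0.0382 CPM by library, so no difference was detectable at this depth and no fold is given. Of its exonic bases, 6.91% also lie in exons of another gene.

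The olfactory receptor family was low throughout, and OR51E1, with 28 counts over all libraries, stood in the upper part of it. The count table held 78 protein-coding olfactory receptor genes, with a median of 5 counts over the 6 libraries together. Of these, 15 had more counts in all than OR51E1, and 35 had more than OR51E2, which was at the median. The low-count filter was passed by 9, and no member of the family exceeded 1.88 CPM as the mean of a line.

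Ordered by level per kilobase of exon, the parental cells had ADRA2A and ADRA2C first, followed by ADRB1 (0.241 ± 0.0869 CPM per kb), OPRK1 (0.209 ± 0.0474), ADRA1A (0.160 ± 0.0294) and OR51E1 (0.0277 ± 0.0226). The SD ranges of ADRB1 and OPRK1 overlapped, as did those of OPRK1 and ADRA1A. In LNCaP-enzaR the order was ADRA2C, OPRK1 (4.99 ± 0.242 CPM per kb), ADRA2A, ADRA1A (0.687 ± 0.0632) and ADRB1 (0.0766 ± 0.0182), with OR51E1 and OR51E2 at the limit of counting. The SD ranges of ADRA2C and OPRK1 overlapped, and those of the next fitted genes in the order did not. Both orders rest on the length of all exons of a gene. With the longest transcript as length, the share of ADRA1A among the alpha-adrenergic genes was higher, as given below. The orders were not recomputed with that length, so the places of the genes with several exons, ADRA1A and OPRK1, may depend on it.

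Other receptors of the same families set these values in context. ADRA2B was at 0.180 ± 0.140 and 0.0941 ± 0.0795 CPM and did not pass the test (adjusted p = 0.289, edgeR quasi-likelihood test with Benjamini-Hochberg adjustment). ADRA1D held at most 3 counts in any library. ADRA1B and ADRB3 were not analysed here.

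Among opioid receptors, the delta receptor gene OPRD1 was at 0.167 ± 0.0238 and 0.102 ± 0.0726 CPM and did not pass (adjusted p = 0.337). The nociceptin receptor gene OPRL1 was counted 4, 0 and 0 times in parental and 44, 26 and 51 times in LNCaP-enzaR libraries, and it passed (log2 fold change 4.74, SE 0.76, adjusted p = 7.55e-05). Its value is uncertain, because 74.8% of its exonic bases lie in exons of another gene and the use of strand in counting is not stated. Without parental library 1, the fitted log2 fold change was 8.29. The mu receptor gene OPRM1 was not analysed here.

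Taken per kilobase and summed over the 5 alpha-adrenergic genes measured, the alpha-adrenergic transcript pool was 55.5 ± 1.73 CPM per kb in parental and 7.84 ± 0.467 CPM per kb in LNCaP-enzaR cells (SD, n = 3), 7.08-fold smaller. ADRA2A made up 97.8 ± 0.425% of the parental pool and 19.3 ± 2.35% of the resistant pool. ADRA2C made up 1.80 ± 0.395% and 71.5 ± 2.88%. ADRA1A accounted for 0.288 ± 0.0485% and 8.78 ± 1.04%. By coupling class among these measured genes, the Gi-coupled alpha-2 genes were the larger part in both lines, at 99.7 ± 0.0534% and 91.2 ± 1.09%. The Gq-coupled alpha-1 genes ADRA1A and ADRA1D held 0.296 ± 0.0534% and 8.83 ± 1.09%. ADRA1B, also an alpha-1 gene, was not analysed here, so these are not shares of the whole classes. With the longest transcript in place of all exons as the length, the share of ADRA1A was 0.514% and 14.5%.

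**Figure D2:**
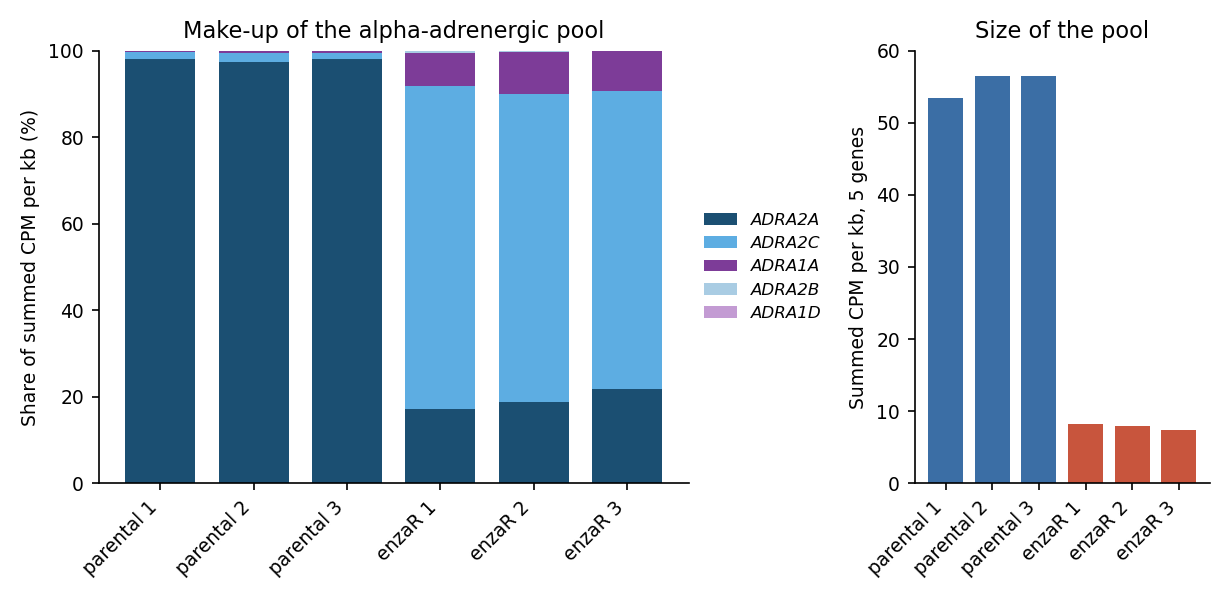
Left, share of each alpha-adrenergic receptor gene measured in the summed CPM per kb of exon, in percent, for each library. Right, that sum in CPM per kb. ADRA2A fills most of the parental bars (97.8% on average) and ADRA2C most of the LNCaP-enzaR bars (71.5%), while the sum is 55.5 CPM per kb in parental and 7.84 CPM per kb in LNCaP-enzaR cells.

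The bases before the start of the single-exon receptor genes are shown because these intronless genes differed between the lines in opposite directions. They are from RefSeq (GRCh38.p14), 5′ to 3′ on the plus strand, and end at the base before the gene's start in the count table. Capitals mark matches to the motifs searched on both strands: the cAMP response element TGACGTCA, its core TGACG, the TATA box TATAAA, the androgen response element core TGTTCT and the E-box CACGTG; the full cAMP response element contains its core.
ADRA2A, chr10:111076779-111077028: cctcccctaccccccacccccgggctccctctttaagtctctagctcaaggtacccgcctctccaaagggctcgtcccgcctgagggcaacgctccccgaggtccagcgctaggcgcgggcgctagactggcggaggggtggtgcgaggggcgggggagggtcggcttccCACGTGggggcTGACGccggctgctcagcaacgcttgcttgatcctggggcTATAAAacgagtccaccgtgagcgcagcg
ADRA2C, chr4:3766135-3766347: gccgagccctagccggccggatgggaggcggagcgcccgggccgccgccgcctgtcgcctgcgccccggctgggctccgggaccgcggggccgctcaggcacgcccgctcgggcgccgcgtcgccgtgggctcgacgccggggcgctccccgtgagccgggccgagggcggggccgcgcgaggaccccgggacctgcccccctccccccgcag
ADRB1, chr10:114043616-114043865: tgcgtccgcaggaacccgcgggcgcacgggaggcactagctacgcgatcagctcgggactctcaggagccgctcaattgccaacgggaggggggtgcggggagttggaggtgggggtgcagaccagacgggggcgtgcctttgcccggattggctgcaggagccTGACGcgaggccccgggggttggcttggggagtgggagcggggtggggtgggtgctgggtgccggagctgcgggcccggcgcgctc

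Matches are a description of letters and show neither binding nor use of a site. In windows of 300 bases that run from 250 before to 50 after the RefSeq start, ADRA2A held TATAAA at position -29, TGACG at -69 and CACGTG at -80 relative to that start, and ADRB1 held TGACG at -86. ADRA2C and OR51E1 held none of the 5 motifs. Of all 35116 such windows, 11.5% held TATAAA, 24.6% TGACG, 7.26% CACGTG, 14.8% TGTTCT and 1.85% TGACGTCA. ADRA2C was the most CpG-rich of the 4, with 51 CpG and 83.0% G+C, above 99.0% of all windows by CpG count. ADRA2A had 26 CpG and 69.3% G+C and ADRB1 had 28 CpG and 71.3% G+C, against a median of 14 CpG and 58.7% G+C. OR51E1 had 3 CpG and 57.0% G+C.

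Genes beside the receptors were tested next, since position was not used in choosing them. Within 250 kb of any of the 7 genes, 24 genes were tested, of which 5 were higher, 4 lower and 15 did not pass, or 37.5% past the limits beside 42.7% of all genes. Next to ADRA2C, the long non-coding RNA gene LINC02600 lies 3.0 kb upstream on the opposite strand. It rose from 0.138 ± 0.0536 to 4.17 ± 0.362 CPM (4.87 on the log2 scale, SE 0.23, adjusted p = 2.22e-10 by edgeR). LRPAP1, which encodes a chaperone of lipoprotein receptors, lies 233.9 kb from ADRA2C and rose too (log2 fold change 0.79, SE 0.07).

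Around ADRA1A, DPYSL2 and PNMA2 rose (log2 fold changes 0.71 and 1.92) and BNIP3L did not pass the fold limit (0.24). Around ADRA2A, 1 of 7 tested genes passed: PDCD4, an inhibitor of translation initiation, which fell by 0.89 on the log2 scale. SHOC2, the closest to ADRA2A at 63.4 kb, had a log2 fold change of -0.51 and did not pass the fold limit. Around ADRB1, 3 of 6 tested genes fell, with log2 fold changes of -0.92 for the DNA repair nuclease gene DCLRE1A and -1.77 for AFAP1L2. The third, TDRD1, a Tudor-domain gene of the germ line, was at 0.621 ± 0.0566 CPM in parental and 0.00722 ± 0.0063 CPM in LNCaP-enzaR cells. Near OPRK1, the long non-coding RNA gene RP11-400K9.4 passed (log2 fold change 1.34, SE 0.38, adjusted p = 0.00666), but not without LNCaP-enzaR library 2 (adjusted p = 0.0535). RP11-1081M5.1 did not pass the fold limit (log2 fold change 0.57). Near the olfactory pair, TRIM68 and TRIM21 had log2 fold changes of -0.43 and -0.30 and did not pass it either.

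**Figure D3:**
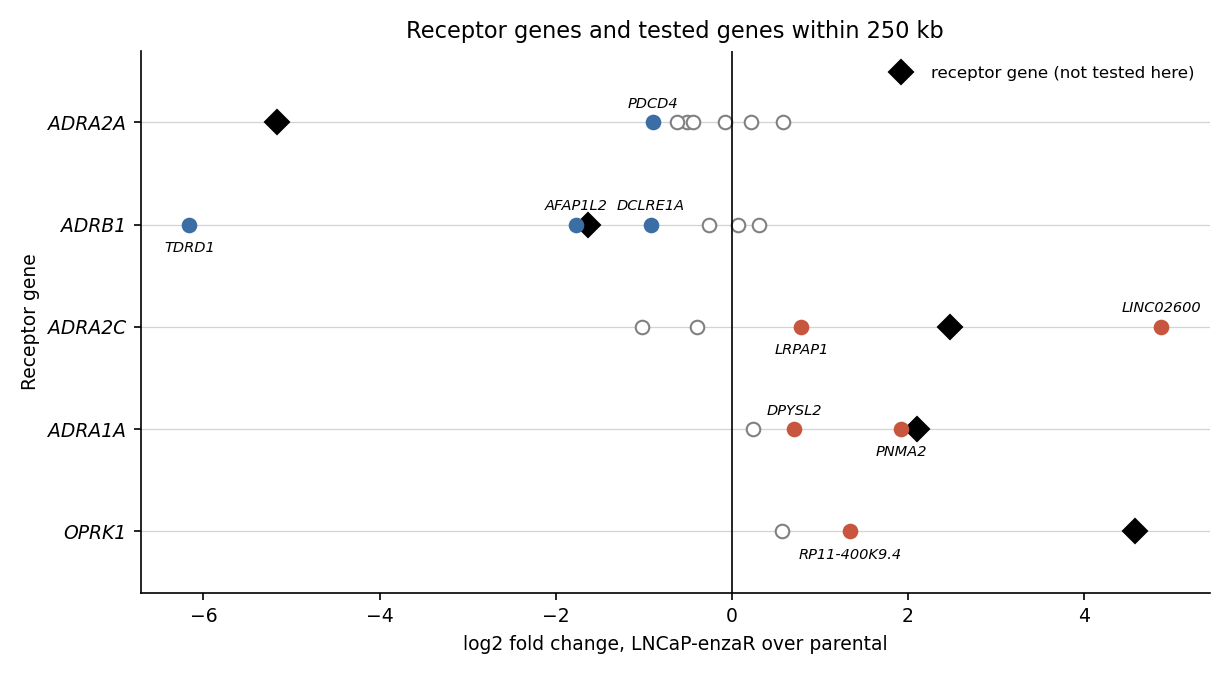
Log2 fold change, LNCaP-enzaR over parental, of 5 receptor genes (diamonds, given without a test) and of the tested genes within 250 kb of each (circles; filled where past the limits, red higher and blue lower, open where not). LINC02600, at 4.87, lies beyond ADRA2C at 2.48, while of the 7 genes around ADRA2A only PDCD4 is filled, at -0.89.

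The genes that supply, couple and switch off these receptors were counted from lists, with the receptors themselves left out. Of 133 listed genes, 105 were tested, 36 were higher, 26 were lower and 43 did not pass, so that 59.0% passed beside 42.7% of all genes (23.3% higher and 19.5% lower). These shares are also the background for the counts of each list that follow. The median log2 fold change in the lists was 0.14 beside 0.01 over all genes. The lists were chosen with earlier results of these data known, so nothing is read from these comparisons. For the same reason, adjusted p-values of listed genes are no independent support.

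On the ligand side, 7 genes of catecholamine synthesis and clearance were tested, with 2 higher and 4 lower. DDC, the decarboxylase that makes dopamine, rose from 17.6 ± 0.298 to 240.5 ± 9.99 CPM (3.77 on the log2 scale, SE 0.06, adjusted p = 5.93e-15 by edgeR). TH and DBH, the synthesis enzymes before and after it, had at most 2 and 7 counts in any library. SLC22A3, an extraneuronal catecholamine transporter, fell from 199.7 ± 10.9 to 0.144 ± 0.0354 CPM (-10.44 on the log2 scale, SE 0.12, adjusted p = 2.80e-16 by edgeR). MAOA, a catecholamine-degrading oxidase, fell from 285.5 ± 5.30 to 60.9 ± 1.48 CPM. PDYN, the precursor of the dynorphins that bind the kappa receptor, was counted 0, 0 and 3 times in parental and 18, 27 and 20 times in LNCaP-enzaR libraries, and it was the 1 opioid peptide gene tested. It passed with a count ratio of 20.7 (exact 95% interval 6.79 to 103.2, adjusted p = 0.000676).

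Of the G protein alpha subunits, 12 were tested, with 3 higher and 1 lower. GNAO1, the alpha subunit of Go through which alpha-2 and kappa receptors can signal, rose from 0.244 ± 0.0886 to 10.7 ± 0.0723 CPM (5.46 on the log2 scale, SE 0.17, adjusted p = 3.18e-12 by edgeR). The Gi subunit gene GNAI3 fell from 137.4 ± 2.01 to 79.6 ± 4.43 CPM, and GNAI1 and GNAI2 did not pass the fold limit (log2 fold changes -0.41 and 0.40). GNAS, which encodes Gs, was abundant in both lines (885.9 ± 15.6 and 722.5 ± 35.6 CPM) and did not pass it either. Of 13 beta and gamma subunit genes, 4 were higher and 3 lower. GNG13 rose from 1.06 ± 0.106 to 15.5 ± 0.753 CPM and GNB4 fell from 88.7 ± 2.28 to 7.62 ± 0.456 CPM, with 19.7% and 24.3% of their exonic bases shared with another gene.

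Of the adenylyl cyclases, which make cAMP, 7 were tested, of which 5 were higher and 2 did not pass. ADCY7 rose from 1.23 ± 0.253 to 5.98 ± 0.339 CPM (41.8% of its exonic bases shared with another gene) and ADCY9 from 29.6 ± 2.69 to 52.6 ± 5.10 CPM. Of the 9 tested phosphodiesterases, which degrade cAMP, 1 was higher and 5 were lower. PDE3B fell from 62.9 ± 0.667 to 13.8 ± 1.51 CPM, and PDE3A had 375, 352 and 344 counts against 0, 0 and 3 (count ratio 373.0 for parental over LNCaP-enzaR, exact 95% interval 127.3 to 1812). Downstream, 17 genes of protein kinase A, EPAC and CREB were tested, with 5 higher and 3 lower. The regulatory subunit gene PRKAR1B rose from 14.5 ± 0.413 to 35.1 ± 1.99 CPM, and the transcription factor gene CREB1 fell from 83.3 ± 2.33 to 34.1 ± 3.54 CPM. Of 8 genes known as cAMP and CREB targets, 4 were higher and 3 lower. FOS rose (log2 fold change 3.47, SE 0.20) and the clock gene PER1 fell by 1.09 on the log2 scale (SE 0.08).

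In the phospholipase C arm used by alpha-1 receptors, 10 genes were tested, with 5 higher and 1 lower. The inositol trisphosphate receptor genes ITPR1 and ITPR2, which release calcium from the endoplasmic reticulum, rose from 11.9 ± 0.889 to 90.0 ± 1.95 CPM and from 4.53 ± 0.306 to 16.0 ± 1.67 CPM. ITPR3 was the 1 gene of this arm that fell (log2 fold change -0.63). Of the 16 tested receptor kinases, arrestins and RGS genes, 4 were higher and 6 lower. GRK2, the kinase that desensitises active adrenergic receptors, fell from 285.4 ± 8.38 to 134.1 ± 7.70 CPM. RGS5, which shortens Gi and Gq signals, rose from 0.930 ± 0.122 to 4.12 ± 0.358 CPM. RGS14 and RGS19 rose too (log2 fold changes 0.78 and 1.42), while RGS2, RGS3 and RGS16 fell. RGS2 had 29, 34 and 38 counts in parental and 0, 0 and 0 in LNCaP-enzaR libraries. RGS16 had 61, 40 and 39 against 2, 1 and 2, and RGS3 had a log2 fold change of -0.74. Neither arrestin gene passed the fold limit (log2 fold changes -0.13 for ARRB1 and 0.43 for ARRB2). Of the genes for transport and transduction of odorant receptors, 5 were tested, of which 3 were higher and 2 did not pass. REEP1, an accessory protein of odorant receptor transport, rose from 0.752 ± 0.0872 to 12.9 ± 0.989 CPM, and GNAL, the olfactory G protein subunit gene, rose from 0.297 ± 0.0862 to 1.04 ± 0.213 CPM with 29.1% of its exonic bases shared with another gene.

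**Figure D4:**
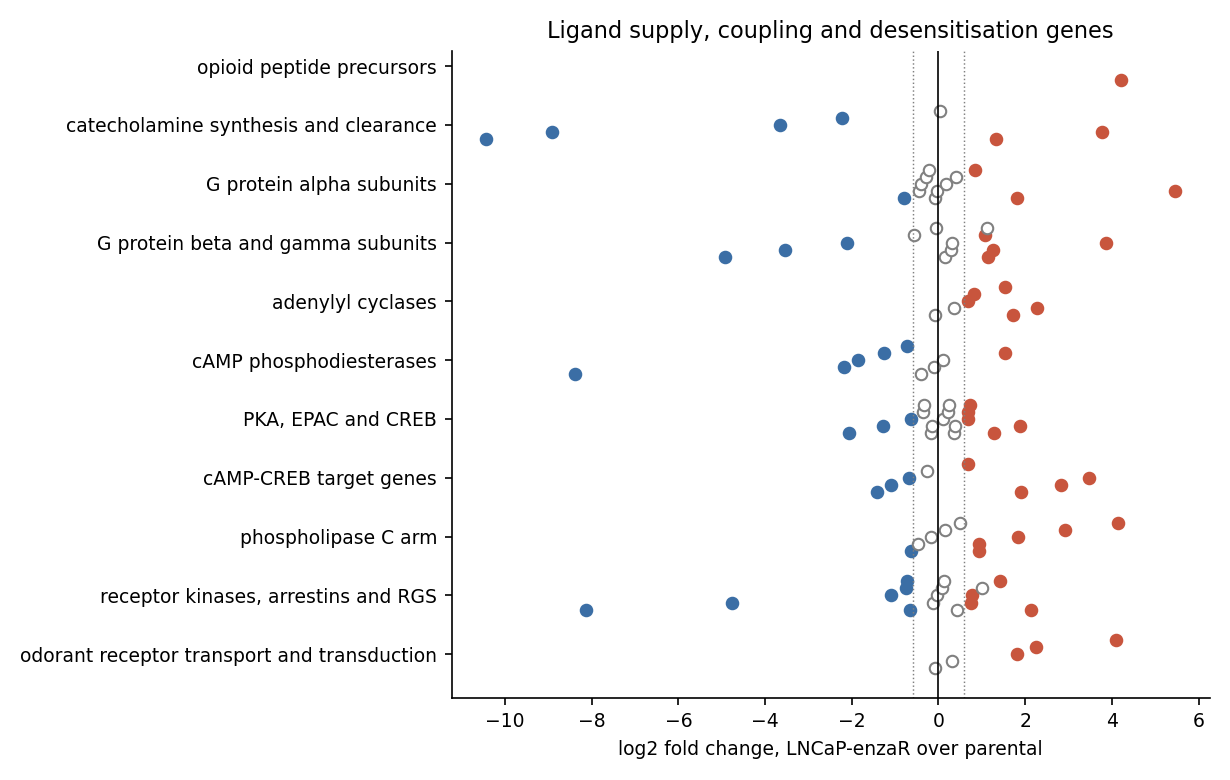
Log2 fold change, LNCaP-enzaR over parental, of the tested genes in each list. The 7 receptors and the lists of other adrenergic and opioid receptors are left out. Filled points passed the limits (red higher, blue lower), open points did not, and dotted lines mark a 1.5-fold change. The adenylyl cyclases hold 5 higher genes, and the phosphodiesterases 1 higher and 5 lower.

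Protein-coding genes with at least 0.5 CPM on average were ranked by how closely their log2 CPM, centred on the mean of each gene, followed a receptor over the 6 libraries. Among 12459 candidates the root mean square difference from ADRA1A was smallest for ACTA2 (0.06, with 36.2% of its exonic bases in other genes) and ZMYND12 (0.06). For ADRA2A it was smallest for ASRGL1 (0.15) and DDX53 (0.15), and for ADRA2C for LIPH (0.10) and FBXO2 (0.11). STARD13 (0.18) and GAL3ST2 (0.23) were closest to ADRB1, and FRMD3 (0.06) and COL12A1 (0.13) to OPRK1. With only 2 lines this mainly ranks genes by a like difference between them. FRMD3, for example, was at 1.20 ± 0.327 and 27.3 ± 2.03 CPM, close to the levels of OPRK1 in both lines.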

How the data were processed

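RNA from 3 flasks each of parental LNCaP and LNCaP-enzaR was sequenced, and the authors deposited raw counts per gene. Per the study's methods, the authors trimmed reads with Cutadapt, aligned them to GRCh38 with STAR and GENCODE annotation, and counted them with featureCounts. Strand setting, multimapped reads and counting of reads or fragments are not stated.

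The counts were fitted in edgeR (version 4.0.16, under R 4.3.3; filterByExpr, TMM, robust quasi-likelihood F-test, all 6 libraries, no covariates), with Benjamini-Hochberg adjustment over 19711 genes. A gene passed with a fold change of 1.5 or more either way and an adjusted p up to 0.05, the limits of the study's methods; DESeq2, which they name, was run as an alternative (version 1.42.0). CPM is counts per 1000000 of the TMM-scaled library. GENCODE v44 gave strand, exon length and overlap. Where a line had at most 3 counts in every library, a ratio of summed counts with an exact 95% interval covers counting error only, since amplified reads are not independent molecules. The code was tested on simulated data.

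The 7 receptors and all gene lists were chosen with earlier results of these data known. Some listed genes are not reported here, so shares of the receptor pool were computed over the alpha-adrenergic genes. Named genes are the receptors, other adrenergic and opioid receptors, the 2 genes of smallest p in each list, up to 2 neighbours per receptor by p, and the 2 genes most alike; others were named after their values were seen. Alternatives were other scalings, filters, fold limits and lengths, a replicate block, leaving out each library and, added after seeing the data, leaving out mitochondrial genes.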

Additional observations from a re-analysis of the deposited data

How the results depend on the processing

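The number of genes past the limits was 8425. It was 13074 without a minimum fold and 5561 with at least 2-fold, and 8372 to 8517 when 1 library was left out. The 5 fitted receptors kept their direction in all 14 alternatives run. The count of receptors at least 1.5-fold lower was 2, and 4 with no filter, because OR51E1 and OR51E2 then enter at their few counts. With the longest transcript as length, the share of ADRA2C in LNCaP-enzaR was 67.3% and that of ADRA1A was 0.514% in parental and 14.5% in LNCaP-enzaR. The genes past the limits in the receptor lists numbered 62, and 48 to 65 over the alternatives, the lowest with at least 10 counts in every library, which tests fewer genes.

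Replicate numbers are shared between the lines, but the deviations of same-numbered libraries correlated at -0.0652 to -0.00041. No shared deviation was seen, though this cannot tell whether same-numbered flasks were handled together. With a replicate block, 8212 genes passed, and the receptor and list counts were 3 higher, 2 lower and 62. Upper-quartile scaling shifted the median log2 fold change of all genes by 0.10 and gave 60.9% rather than 54.5% of calls as higher. With the fold limit kept at 1.5, direction and call were the same in every alternative run for 34 of the 36 other genes named by rule; genes named after their values were seen were not rerun one by one. The exceptions were RP11-400K9.4, given above, and RP11-1081M5.1, which passed in 4 alternatives. Sizes fitted against a few counts moved most when 1 library was left out: OPRL1 and PDYN reached log2 fold changes of 8.29 (without parental library 1) and 7.45 (without parental library 3), PDE3A -11.48 (without LNCaP-enzaR library 3), and ADRA2B, which did not pass, -1.84 (without LNCaP-enzaR library 1). Depth leaves several genes resting on under 100 counts a library, among them OR51E1, OR51E2, ADRB1, ADRA2B, OPRD1, OPRL1, PDYN, TDRD1, OR5B12, RBFOX3 and TUBB3.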

Other observations

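Elsewhere in the olfactory receptor family, 2 genes were higher and 2 lower in LNCaP-enzaR among the 9 tested. Over all tested genes, 42.7% passed the limits, 23.3% being higher and 19.5% lower, so nothing is read from these counts. The genes named here were picked out after their values were seen. OR5B2 was counted 140, 88 and 104 times in parental and 2, 0 and 0 times in LNCaP-enzaR libraries, and OR5B12, next to it on chromosome 11, 44, 21 and 52 times against 1, 0 and 2 times. Both passed the test. OR2A7 rose from 0.685 ± 0.0987 to 1.88 ± 0.188 CPM (1.45 on the log2 scale, SE 0.20, adjusted p = 1.75e-05 by edgeR) and had the most counts of the family. OR8A1 rose from 0.458 ± 0.155 to 0.823 ± 0.256 CPM (0.86 on the log2 scale, SE 0.33, adjusted p = 0.0321 by edgeR).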
